A study of Mus musculus with 5 samples.

Results

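The 34 genes described here carry glucose and fructose into the cell, break glucose down to pyruvate and lactate, move lactate across the membrane, and rebuild glucose from lactate and amino acids. They were chosen by symbol from a list of glycolytic, gluconeogenic and hexose or lactate transport genes, by a rule that uses none of their measured values, and all 34 were present among the 32285 genes of the deposited matrices. They were followed cell class by cell class in mouse kidney under 3 conditions: vehicle-treated, acute injury by aristolochic acid I, and the chronic stage after that injury.

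Glycolysis splits glucose in the cytosol and ends in pyruvate, which either enters mitochondria or is reduced to lactate. Gluconeogenesis runs the path backwards through a few enzymes of its own, among them phosphoenolpyruvate carboxykinase, fructose-1,6-bisphosphatase and glucose-6-phosphatase. In the kidney the proximal tubule is the main site of gluconeogenesis and of glucose reabsorption, burns mostly fatty acids and lactate, and is known for little glycolysis, while distal segments and the medulla use glucose. Many steps exist as paralogs: hexokinase 2, phosphofructokinase P and lactate dehydrogenase A are known as forms induced in dividing, hypoxic or activated cells.

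The mice were wild-type C57BL/6 males, 8 to 10 weeks old when the injury model was set up. The AKI group received aristolochic acid I, a plant nephrotoxin taken up by tubule cells, by intraperitoneal injection at 3 mg/kg every 3 days over 2 weeks, the CKD group had the same injections followed by 2 weeks without them, and the control received vehicle. In all, 1 library was made for the control (n = 1) and 2 each for AKI and CKD (n = 2 and n = 2), as droplet-based 3′ single-cell libraries in which each captured transcript is counted once by its unique molecular identifier (UMI). After filtering, 8516 control cells, 10482 and 9919 AKI cells and 16333 and 8804 CKD cells were kept, with 55531053 to 80225145 UMIs per library. Nothing in the labels says which animals the libraries came from, so that p-values measure the spread between libraries, which may be technical in part. A level below is the number of UMIs of a gene per 10000 UMIs of that cell class in that library. Because a 3′ count is not divided by length, levels are compared between libraries and classes, and between genes only as a share of a paralog family's UMIs.

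Cells were grouped into 14 classes named from marker genes and written with "-like": proximal tubule (PT), thick ascending limb (TAL), distal convoluted and connecting tubule (DCT/CNT), principal and intercalated cells of the collecting duct (CD PC, CD IC), urothelium and thin limb, endothelium (EC), fibroblast and pericyte, macrophage, dendritic cell (DC), neutrophil, T lymphocyte, NK and B lymphocyte. The control library stood apart in quality, with 38.7% of its barcodes over 30% mitochondrial UMIs against 11.1% to 12.7% in the others. It also shared 120 barcodes with CKD 2, in 91 of which the CKD 2 cell held over 20 times as many UMIs. Free RNA differed between libraries: genes of the proximal tubule were found in T lymphocyte-like cells at 2.07% to 5.81% of their PT-like level in the control, 2.13% to 3.88% in AKI, 3.28% to 5.26% in CKD 1 and 0.435% to 1.82% in CKD 2, over Pck1, Fbp1, G6pc, Slc5a2 and Khk. Levels of tubule genes in immune and endothelial cells below are read against this.

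The promoters of 5 members are shown because these genes carry some of the shifts described further on: Pgk1 and Ldha rose in 2 immune classes, as did Tpi1 and Pgam1, Slc16a1 and Slc16a3 changed in opposite directions in macrophage-like cells, and Hk2 was higher in the injured tubule than in the control. Each line gives 300 bases of the RefSeq sequence (GRCm38.p6), 250 before and 50 after an annotated start, read 5′ to 3′ on the strand of the gene, with the letters ACGTG or CACGT, the core of the hypoxia response element on either strand, in capitals. The stretches are chrX:106186850-106187149 on the plus strand for Pgk1, chr7:46845554-46845853 on the plus strand for Ldha, chr3:104638414-104638713 on the plus strand for Slc16a1, chr11:120948817-120949116 on the plus strand for Slc16a3 and chr6:82774405-82774704 on the minus strand for Hk2.
Pgk1: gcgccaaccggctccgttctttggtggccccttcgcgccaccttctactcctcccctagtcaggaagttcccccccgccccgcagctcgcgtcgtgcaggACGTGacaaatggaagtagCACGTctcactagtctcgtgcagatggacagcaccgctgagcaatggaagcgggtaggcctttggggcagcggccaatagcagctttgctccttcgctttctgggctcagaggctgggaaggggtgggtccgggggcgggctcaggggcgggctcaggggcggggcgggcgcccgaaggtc
Ldha: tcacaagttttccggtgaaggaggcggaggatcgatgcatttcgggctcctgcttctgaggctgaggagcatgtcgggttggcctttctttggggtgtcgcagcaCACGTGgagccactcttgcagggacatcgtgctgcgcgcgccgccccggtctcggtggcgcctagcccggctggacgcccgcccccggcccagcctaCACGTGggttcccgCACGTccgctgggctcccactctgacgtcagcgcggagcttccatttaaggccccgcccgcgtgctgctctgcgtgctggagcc
Slc16a1: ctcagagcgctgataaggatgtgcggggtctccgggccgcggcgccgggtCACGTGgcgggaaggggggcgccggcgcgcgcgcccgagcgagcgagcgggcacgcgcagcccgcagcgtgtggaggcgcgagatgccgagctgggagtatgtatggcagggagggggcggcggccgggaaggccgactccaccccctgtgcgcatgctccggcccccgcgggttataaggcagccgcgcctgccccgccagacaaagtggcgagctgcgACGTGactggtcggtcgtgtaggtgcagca
Slc16a3: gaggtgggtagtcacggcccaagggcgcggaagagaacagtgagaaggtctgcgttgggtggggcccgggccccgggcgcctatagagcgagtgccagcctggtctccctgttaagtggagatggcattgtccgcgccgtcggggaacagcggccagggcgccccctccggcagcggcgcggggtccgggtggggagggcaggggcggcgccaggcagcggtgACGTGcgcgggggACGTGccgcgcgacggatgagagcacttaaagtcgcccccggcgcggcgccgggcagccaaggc
Hk2: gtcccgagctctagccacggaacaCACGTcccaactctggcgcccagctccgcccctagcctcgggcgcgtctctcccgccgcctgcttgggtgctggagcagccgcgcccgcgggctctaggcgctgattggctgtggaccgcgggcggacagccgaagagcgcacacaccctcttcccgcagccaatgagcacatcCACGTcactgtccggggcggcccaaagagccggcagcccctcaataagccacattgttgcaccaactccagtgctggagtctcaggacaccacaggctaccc

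Of the 34 members, 32 were in the promoter table, with 48 starts between them. The letters ACGTG (either strand) were found at 20 of these 48 promoters, belonging to 17 genes, against 19.6% of all 32851 promoters of the same length. All stretches printed above hold them. Those of Tpi1 and Pfkp and another start of Ldha, not printed, hold 0, and that of Pgam1 holds 1. The palindrome CACGTG, which contains ACGTG on both strands and is also the E-box read by MYC and ChREBP, was found at 7 of the 48 and at 7.15% of all promoters. The letters GTTAAT (either strand), the core bound by hepatocyte nuclear factor 1, were found at 3 of the 48, those of G6pc, Khk and Pck1, and at 7.10% of all. A match describes letters in this window and says nothing of binding.

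The members differed in the cell class that held their highest level (heat map of mean levels by cell class). PT-like cells had the highest level of 12 members, including the sodium-glucose cotransporter Slc5a2 (5.47 to 6.50 per 10000 over the 5 libraries), the basolateral glucose carrier Slc2a2 (1.82 to 3.46), the fructose kinase Khk (3.41 to 4.08), Fbp1 (5.62 to 10.4), Pck1 (6.17 to 13.3), G6pc (1.14 to 3.57), its transporter partner Slc37a4 (0.982 to 1.33) and pyruvate carboxylase, Pcx (1.07 to 1.42). For each of these 8 genes the lowest PT-like library lay above the highest library of the next class. The same held for the lactate and pyruvate carrier Slc16a1 (MCT1), at 0.345 to 0.587 in PT-like cells, with T lymphocyte-like cells next at 0.115 to 0.316. Red-cell and liver type pyruvate kinase, Pklr, was highest in PT-like cells too (0.0831 to 0.277), but its range overlapped that of the next class.

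**Figure D1:**
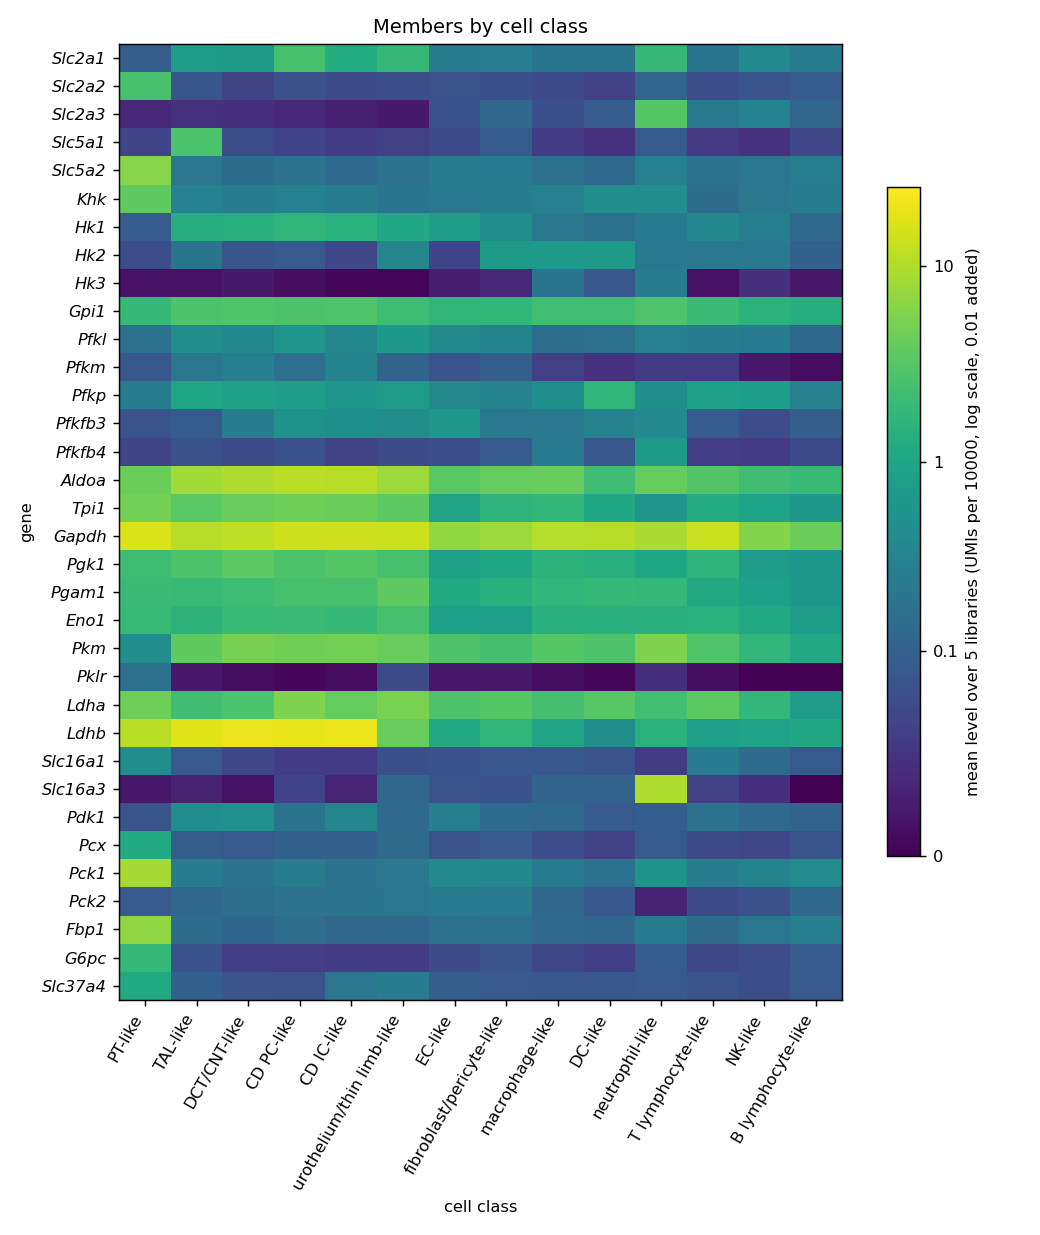
Mean level over the 5 libraries of each of the 34 members (rows, ordered from transport to gluconeogenesis) in each of the 14 cell classes (columns), in UMIs per 10000 on a log colour scale with 0.01 added. PT-like cells stand out for Slc5a2, Slc2a2, Khk, Pck1, Fbp1, G6pc and Slc37a4, TAL-like cells for Slc5a1, and neutrophil-like cells for Slc16a3 and Slc2a3.

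The second sodium-glucose cotransporter, Slc5a1, had its highest level in TAL-like cells, at 2.08 to 3.75, while T lymphocyte-like cells held 0.00514 to 0.0662 and PT-like cells 0.0198 to 0.0668. The glucose carrier Slc2a1 (GLUT1) was highest in CD PC-like cells, at 1.91 to 3.07, where hexokinase 1 also peaked (1.30 to 1.94), and PT-like cells held 0.0617 to 0.125 of Slc2a1. Lactate dehydrogenase B, the heart-type subunit, stood at 16.5 to 23.3 in DCT/CNT-like cells and overlapped CD IC-like cells at 15.6 to 26.3. The phosphoglycerate mutase gene Pgam1 was highest in urothelium/thin limb-like cells at 3.06 to 4.13, with no overlap with the next class.

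Neutrophil-like cells were few, with 20 to 84 cells per library, yet the lactate exporter Slc16a3 (MCT4) was at 5.09 to 15 there, against 0.0652 to 0.199 in the next class. The high-affinity glucose carrier Slc2a3 (GLUT3) was at 1.03 to 4.5 in neutrophil-like cells, again above every library of the next class, NK-like cells at 0.202 to 0.437. Of the lactate carriers' UMIs in neutrophil-like cells, Slc16a3 held 98.9% to 100%. Phosphofructokinase P, Pfkp, was highest in DC-like cells (0.810 to 2.02) and the bifunctional regulator Pfkfb3 in EC-like cells (0.344 to 1.12), both with overlap with other classes.

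In PT-like cells the glucose-making genes G6pc, Pck1 and Fbp1 were lower, and Hk2 and Pfkp higher, after aristolochic acid than in the control. G6pc, whose product releases free glucose, was at 3.57 in the control, 1.56 and 1.32 in AKI and 1.14 and 1.46 in CKD. The control was above all 4 injured libraries, and summed over libraries the ratio to the control was 0.402 in AKI (95% counting interval 0.378 to 0.427) and 0.339 in CKD (0.319 to 0.361). Pck1, which makes phosphoenolpyruvate, was at 13.3 in the control, 6.17 and 6.28 in AKI and 6.98 and 10.7 in CKD. Both AKI libraries lay below both CKD libraries, and all 4 lay below the control. Fbp1, the fructose-1,6-bisphosphatase, was at 10.4 in the control, 5.78 and 5.93 in AKI and 5.62 and 6.47 in CKD, so that the injured groups overlapped each other below the control.

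Glucose entry did not follow the same pattern. Slc2a2 was at 1.82 in the control, 2.60 and 3.46 in AKI and 2.14 and 2.73 in CKD, with the control lowest. Slc5a2 was at 5.67 in the control, 5.47 and 6.30 in AKI and 5.92 and 6.50 in CKD, and the control lay within the range of the injured libraries. Over the whole class Khk, Slc37a4, Pcx and the mitochondrial isoform Pck2 also stayed within 1.36-fold of the control in each of the 4 libraries.

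Among glycolytic enzymes of PT-like cells, Hk2, the insulin- and hypoxia-regulated hexokinase, had 2 UMIs in the control, 35 and 31 in AKI and 62 and 45 in CKD. Its levels were 0.00320, 0.0555, 0.0425, 0.0517 and 0.127, a ratio to the control of 15.2 in AKI (95% counting interval 4.04 to 128) and 21.6 in CKD (5.83 to 181). The CKD counts of Hk2 came mostly from a different cluster in each library. In CKD 1, 41 of the 62 UMIs lay in a cluster led by Kap, Spink1 and Guca2b. In CKD 2, 36 of the 45 lay in a cluster led by Gm26917, Snhg11 and Lrp2. These clusters held 27.5% and 18.4% of the PT-like UMIs of CKD 1 and CKD 2. In the cluster that held most PT-like UMIs of every library, led by Spink1, Slc4a4 and Gpx3, Hk2 had 1 UMI in the control, 21 and 13 in AKI and 5 and 2 in CKD, at levels of 0.00304, 0.0423, 0.0222, 0.00785 and 0.00900. There the AKI libraries stood above the control, while CKD rested on too few UMIs to be set apart from it. Pfkp was at 0.0815 in the control, 0.335 and 0.452 in AKI and 0.303 and 0.164 in CKD. The injured libraries were all above the control and AKI above CKD. Gapdh, glyceraldehyde-3-phosphate dehydrogenase, was at 22.3 in the control and 14.0 to 15.2 in the others, and Ldhb at 15.9 against 10.5 and 11.2 in AKI and 9.27 and 8.02 in CKD. Ldha, the muscle-type subunit, was at 4.07 in the control, 4.55 and 4.78 in AKI and 4.84 and 4.02 in CKD, and overlapped it.

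**Figure D2:**
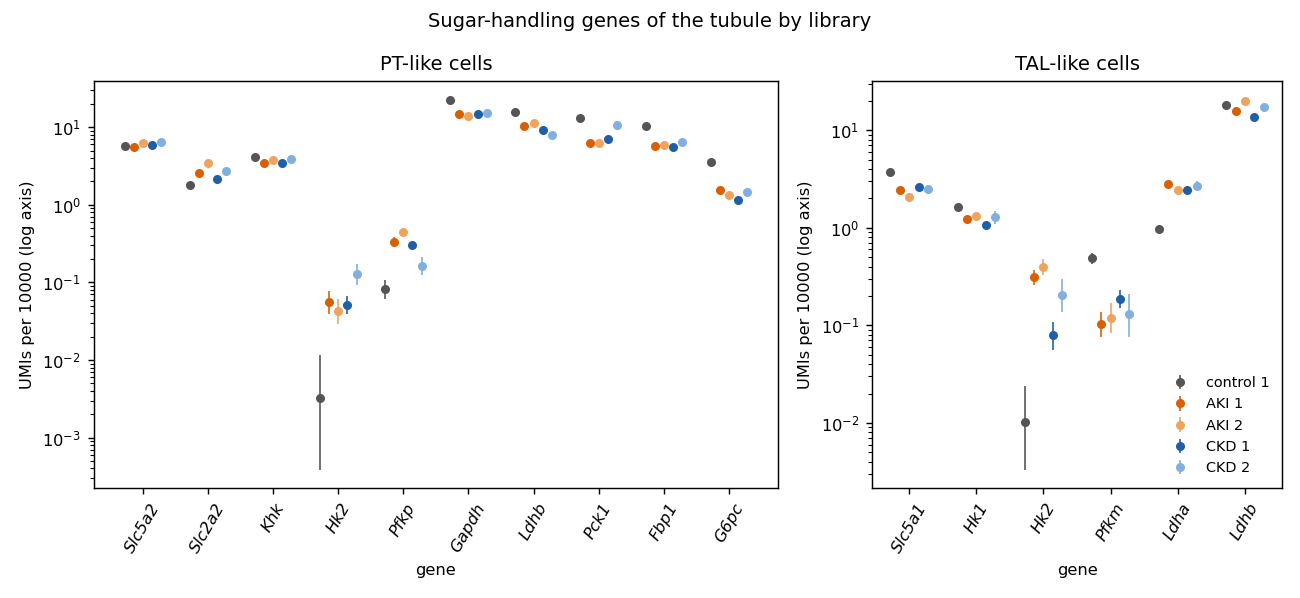
Level in each library (UMIs per 10000, log axis) of 10 members in PT-like cells (left) and 6 in TAL-like cells (right); bars are exact 95% Poisson intervals, which cover counting error only. The control point is highest for Gapdh, Ldhb, Pck1, Fbp1 and G6pc and lowest for Hk2, Pfkp and Slc2a2 in PT-like cells, and in TAL-like cells lowest for Hk2 and Ldha and highest for Pfkm.

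With 1 control library there is no test, and past 2-fold is used here for a gene whose 2 libraries of a group both lay over 2-fold above the control or both under it by as much. In PT-like cells 8 of 33 members were past 2-fold in AKI (14.4% of all genes), with Hk2, Pfkfb3, Pfkp, Pklr, Slc16a3 and Slc2a3 above and G6pc and Pck1 below the control. Slc16a3 counted only because the control had 0 UMIs. With the control set to a floor of 3 UMIs its ratios were 0.993 and 0.858, and 7 members remain. In CKD they were 4 of 32 (12.9% of all genes), with Hk2, Pfkp and Slc2a3 above and G6pc below. AKI and CKD share this control, so that these counts are not independent of each other. Slc2a3 rested on 1 control UMI, with a ratio of 11.1 (1.80 to 454) in AKI. Pfkfb3, which makes the activator of phosphofructokinase, was at 0.0272 in the control and 0.0920 and 0.0905 in AKI, and Pklr at 0.0831 against 0.206 and 0.277.

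The PT-like class changed in other ways alongside. Its 12 markers summed to 108 per 10000 in the control and 60.5 to 75.2 in the other libraries. The 11 injured-tubule markers summed to 19.9 in the control, 175 and 270 in AKI and 120 and 90.4 in CKD. Most of this was Spp1, at 11.2 in the control, 159 and 257 in AKI and 111 and 83.6 in CKD. Of the others, Vcam1, Cryab, Krt18 and Krt8 lay below the control in both CKD libraries. Havcr1, Krt20, Lcn2 and Plin2 lay above it in both, and Sox9 and Clu on either side of it. A cluster led by Miox, Akr1c21 and Ass1, in which Fbp1 stood at 11.6 to 20.5, held 23.8% of the control's PT-like UMIs and 1.22% to 5.23% of the others'. Within the Spink1-, Slc4a4- and Gpx3-led cluster G6pc was at 4.37 in the control, 1.68 and 1.5 in AKI and 1.59 and 1.83 in CKD, as far apart as in the whole class. Slc37a4 there was at 2.02 in the control, 1.29 and 1.27 in AKI and 1.36 and 1.40 in CKD. These libraries lay farther from the control than in the whole class. Fbp1 in that cluster was at 8.14, 6.23, 6.35, 7.39 and 7.67 in the same order of libraries, closer to the control than in the whole class. Gapdh there was at 16.7 in the control and 14.4 to 16.5 in the others, and Ldhb at 13.8 against 9.05 to 12.2, both nearer the control than in the whole class, and the Miox-, Akr1c21- and Ass1-led cluster held Gapdh at 44.9 in the control. Pck1 in the main cluster was at 9.76 in the control, 5.14 and 6.25 in AKI and 7.33 and 9.39 in CKD, so that CKD 2 lay close to the control. T lymphocyte markers summed to 0.129 in control PT-like cells and 1.24 to 5.26 in the others, and macrophage markers to 5.52 in the control and 4.12 to 16 in the others. The part of these shifts in the members' levels was not tested.

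Between AKI and CKD, no member was called in PT-like cells. The edgeR quasi-likelihood test with Benjamini-Hochberg adjustment over all genes called 0 of the 32 members left by the filter on low counts (Hk3 and Slc16a3 were not) and 23 of 12296 genes (0.187%), with 3 members at an unadjusted p under 0.05, while DESeq2 called 0 members with 2 under 0.05. The 3 were Slc16a1, at 0.573 and 0.587 in AKI and 0.345 and 0.365 in CKD (log2 fold change -0.65 ± 0.16 SE, edgeR adjusted p = 0.139), Pfkfb4 (1.01 ± 0.35) and Pck1 (0.56 ± 0.23). CKD 1 differed from CKD 2 in make-up, since a cluster led by Kap, Spink1 and Guca2b held 43.4% of its PT-like cells and 2.39% to 8.17% elsewhere.

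TAL-like cells of the injured libraries had more Hk2 and Ldha and less phosphofructokinase M than those of the control. Hk2 was at 0.0102 in the control, 0.310 and 0.400 in AKI and 0.0791 and 0.206 in CKD, a ratio of 33.7 (14.3 to 105) in AKI and 10.4 (4.24 to 33.1) in CKD. Ldha was at 0.982 in the control, 2.80 and 2.44 in AKI and 2.42 and 2.70 in CKD. Pfkm, the muscle-type phosphofructokinase, was at 0.487 in the control, 0.103 and 0.120 in AKI and 0.185 and 0.130 in CKD. For all 3 genes the control lay outside the range of the 4 injured libraries. Slc5a1, the cotransporter typical of this class, was at 3.75 in the control and 2.08 to 2.63 in the others.

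In both AKI and CKD 4 of 31 members were past 2-fold in TAL-like cells (18.5% and 14.8% of all genes): Hk2, Ldha and Slc2a3 above and Pfkm below. When cells over 15% mitochondrial UMIs were left out, the ratio of Ldha in AKI to the control was 1.70 in place of 2.67 and no longer counted. The AKI count was then 8 of 30, with Hk2, Slc2a1 and Slc2a2 above and Fbp1, G6pc, Pck1, Pfkfb4 and Pfkm below, and the CKD count 3, with Hk2 above and Pck2 and Pfkm below. No share of all genes is set beside the counts at this setting, so that they are not read against the first counts. Between AKI and CKD the edgeR test called no member in any of the 11 classes other than macrophage-like, T lymphocyte-like and PT-like, at 0 of 269 tests of members against 0.193% of 93826 tests of genes, with 32 of the 269 at an unadjusted p under 0.05 and 0 called by DESeq2 (12 under 0.05). The lowest edgeR adjusted p among TAL-like members was that of Hk2 (log2 fold change of CKD over AKI -1.47 ± 0.34 SE, adjusted p = 0.0977). Other settings gave TAL-like calls. With the replicate block 1 member was lower in CKD (edgeR adjusted p = 0.0119), against 2.96% of all genes. With doublets kept 1 was lower (edgeR adjusted p = 0.0462), against 0.858% of all genes. With no filter on low counts 3 were higher and 1 lower, against 4.48% of all genes. Members were also called with some single libraries left out, which leaves a lone library in a group.

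In EC-like cells 7 of 32 members were past 2-fold of the control in AKI (12.7% of all genes) and 3 in CKD (9.35%). Slc2a1 was at 0.151 in the control, 0.420 and 0.336 in AKI and 0.256 and 0.173 in CKD, with the control lowest. Slc16a3 was at 0.0172 in the control, 0.125 and 0.0703 in AKI and 0.0379 and 0.0681 in CKD, on 8 to 33 UMIs a library. The 5 members below the control in AKI were the tubule genes Fbp1, G6pc, Ldhb, Pck1 and Pcx, whose free RNA also differed between libraries, and its part in these levels was not tested.

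Macrophage-like cells had the most members called between AKI and CKD among the 14 classes. The edgeR quasi-likelihood test called 16 of 33 members, 9 higher and 7 lower in CKD, and DESeq2 called 15. Calls were common in this class, at 33.8% of all 12774 genes tested. The number of members called changed when 1 library was left out, and so did that of all genes. Such a fit leaves a lone library in a group, and only effect sizes are given here. The median log2 fold change over the members was 0.20 without AKI 1 and 0.30 without AKI 2. It was -0.21 without CKD 1 and 0.58 without CKD 2. Pklr was too low in this class to be tested. The 9 higher were Hk1, Aldoa, Tpi1, Pgk1, Pgam1, Pkm, Ldha, Pdk1 and Slc16a1, and the 7 lower were the regulators Pfkfb3 and Pfkfb4, the hexokinases Hk2 and Hk3, the glucose carrier Slc2a1, the lactate exporter Slc16a3 and Pck2. The median log2 fold change was 0.29 over the 33 members and 0.01 over all genes. These fold changes use TMM scaling, and on the scale of levels the median gene sits higher by 0.16, with no called member changing direction.

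Pgk1, phosphoglycerate kinase, was at 0.630 in the control, 0.984 and 1.21 in AKI and 2.43 and 2.50 in CKD. Its log2 fold change of CKD over AKI was 1.01 ± 0.13 (SE, edgeR adjusted p = 0.00229). Aldolase A, Aldoa, which splits fructose-1,6-bisphosphate, was at 1.95 in the control, 2.89 and 3.30 in AKI and 6.04 and 6.30 in CKD (0.84 ± 0.11, edgeR adjusted p = 0.00272). In both genes the CKD libraries were highest and the control lowest, with no overlap. Ldha, which turns pyruvate into lactate, was at 1.05, 1.91, 2.07, 3.75 and 3.65 in the same order of libraries (0.73 ± 0.10, edgeR adjusted p = 0.00267). Triosephosphate isomerase, Tpi1, was at 1.39 in the control, 1.23 and 1.34 in AKI and 2.31 and 2.54 in CKD (0.76 ± 0.12), and here the control lay just above AKI.

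Pgam1 was at 0.548 in the control, 1.37 and 1.83 in AKI and 2.73 and 2.49 in CKD (0.54 ± 0.15), and Pkm, the muscle-type pyruvate kinase, at 1.46, 2.60, 3.04, 4.36 and 4.61 (0.51 ± 0.12). Both showed the same order of groups, control below AKI below CKD. Hk1, the constitutive hexokinase, was at 0.215 in the control, 0.151 and 0.142 in AKI and 0.309 and 0.277 in CKD (0.84 ± 0.12), and the kinase that shuts pyruvate out of mitochondrial oxidation, Pdk1, at 0.158, 0.0851, 0.0851, 0.151 and 0.214 (0.94 ± 0.23). Both were lowest in AKI, and for Pdk1 the control lay between the CKD libraries. Slc16a1 was at 0.0502 in the control on 14 UMIs, 0.0600 and 0.0552 in AKI and 0.116 and 0.101 in CKD (0.75 ± 0.18). Gapdh, Eno1 and Gpi1 had both CKD libraries above both AKI libraries and were not called.

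The lower members were led by the PFKFB regulators. Pfkfb3 was at 0.283 in the control, 0.321 and 0.297 in AKI and 0.0860 and 0.114 in CKD (log2 fold change -1.78 ± 0.19 SE, edgeR adjusted p = 0.00112). Pfkfb4 was at 0.519 in the control, 0.229 and 0.231 in AKI and 0.0900 and 0.107 in CKD (-1.39 ± 0.16, edgeR adjusted p = 0.00161), highest in the control. CKD was lowest for both genes, with no overlap. Slc16a3 was at 0.0358 in the control on 10 UMIs, 0.152 and 0.177 in AKI and 0.0907 and 0.0909 in CKD (-1.02 ± 0.16), with AKI highest. Hk2 was at 0.462, 0.914, 0.888, 0.452 and 0.721 (-0.77 ± 0.24), and Hk3, the hexokinase of myeloid cells, at 0.133, 0.260, 0.268, 0.153 and 0.186 (-0.80 ± 0.16). For both hexokinases AKI was highest, and for Hk2 CKD 1 was close to the control. Slc2a1 (-0.42 ± 0.12) and Pck2 (-0.81 ± 0.23) were also called, the former on a difference from 0.230 and 0.243 in AKI to 0.196 and 0.20 in CKD.

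**Figure D3:**
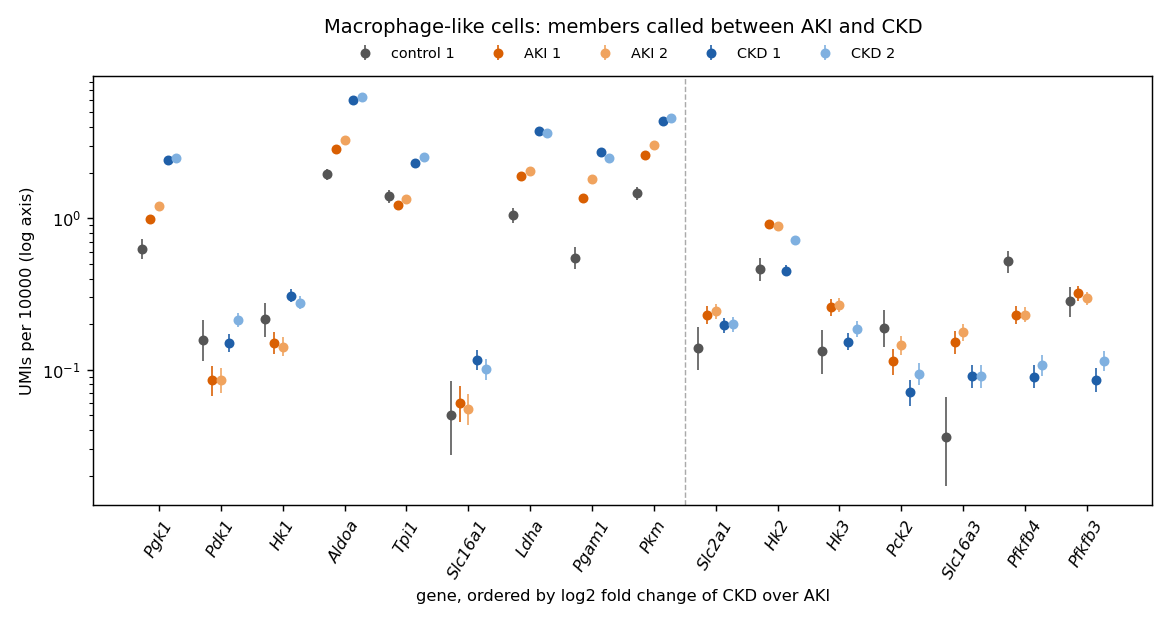
Level in each library (UMIs per 10000, log axis) of the 16 members called between AKI and CKD in macrophage-like cells, ordered by log2 fold change; bars are exact 95% Poisson intervals, which cover counting error only. Left of the dashed line both CKD points lie above both AKI points, from Pgk1 (0.984 and 1.21 against 2.43 and 2.50) to Pkm, and right of it below them.

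These calls moved with the make-up of the class. A cluster led by Ctsk, Mmp9 and Acp5, genes known from bone-resorbing osteoclasts, held 9.31% and 7.40% of macrophage-like cells in AKI but 28.5% and 31.1% in CKD, and 1.92% and 0.975% of their UMIs in AKI against 41.6% and 55.9% in CKD. In CKD its cells held the complement gene C1qa at 0.167 and 0.147 per 10000, against 11.4 and 9.72 in the cells grouped with them from AKI. The latter had only 19 and 2 UMIs of Ctsk, so that a comparison within this cluster sets unlike cells side by side. There the edgeR test called 1 of 31 members, Pfkfb3 (-3.51 ± 0.57, adjusted p = 0.0397), against 1.71% of all 10073 genes, and it is not read further. The 8 macrophage markers of the whole class summed to 205 in the control, 392 and 404 in AKI and 72.1 and 79.1 in CKD, none of them at 0, while Cd68 went the other way, from 3.42 and 3.66 to 5.50 and 6.15. A list of 18 dissociation and stress genes had 15 lower in CKD by the edgeR test, and its sum went from 346 and 345 to 194 and 191.

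In CKD the Ctsk-led cells had Aldoa at 8.93 and 8.65, Pgk1 at 3.04 and 3.17, Pdk1 at 0.251 and 0.305, Slc16a3 at 0.0229 and 0.0225 and Pfkfb3 at 0.0262 and 0.0356. Left without these cells, the class had 0 of 33 members called by the edgeR test (11 at an unadjusted p under 0.05; DESeq2 was not run on it), against 6.80% of all 11851 genes. Clustering without Harmony correction left 3 clusters with Ctsk, Acp5 and Mmp9 among their leading genes unnamed and so outside the class. Other such clusters, of 152 and 102 cells, kept the macrophage name, with 151 and 102 of these cells from CKD 1. The class then held 679 and 398 CKD cells in place of 2354 and 792 and was not free of Ctsk-led cells. In it 10 members were called, against 29.7% of all genes. In the Harmony-corrected class left without the Ctsk-led cluster, Aldoa differed by 0.10 ± 0.14 on the log2 scale and Pdk1 by -0.08. There Pgk1 kept 0.60 ± 0.16, Ldha 0.48 ± 0.14, Pfkfb3 -1.0 ± 0.26 and Pfkfb4 -0.87 ± 0.18, the last with the lowest edgeR adjusted p, 0.0507. Slc16a3 was at 0.152 and 0.178 in AKI and 0.139 and 0.178 in CKD without the cluster, and overlapped.

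Single clusters gave further contrasts. In the cluster led by Lyz2, Ccl6 and Cxcl2 the edgeR test called 10 of 27 members (11.5% of all genes there): Tpi1, Pgk1, Pgam1, Pkm, Ldha, Pfkp, Slc2a1, Slc16a1 and Slc16a3 were higher and Pck2 lower in CKD. Slc16a3 there was at 0.318 and 0.315 in AKI and 0.646 and 0.511 in CKD (0.81 ± 0.18, edgeR adjusted p = 0.0166), the opposite direction to the class as a whole, and so was Slc2a1, at 0.287 and 0.365 in AKI and 0.521 and 0.801 in CKD (1.00 ± 0.22, edgeR adjusted p = 0.0173). Pfkp was at 0.438 and 0.523 in AKI and 1.12 and 1.18 in CKD (1.21 ± 0.15, edgeR adjusted p = 0.000838). This cluster too held different macrophage genes in the 2 groups, with Apoe at 285 and 296 in AKI and 29.4 and 54.1 in CKD. In the cluster led by Ccl8, Ccl7 and Ccl12 the edgeR test called 0 of 28 members and 0.0198% of genes, with 11 members at an unadjusted p under 0.05.

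**Figure D4:**
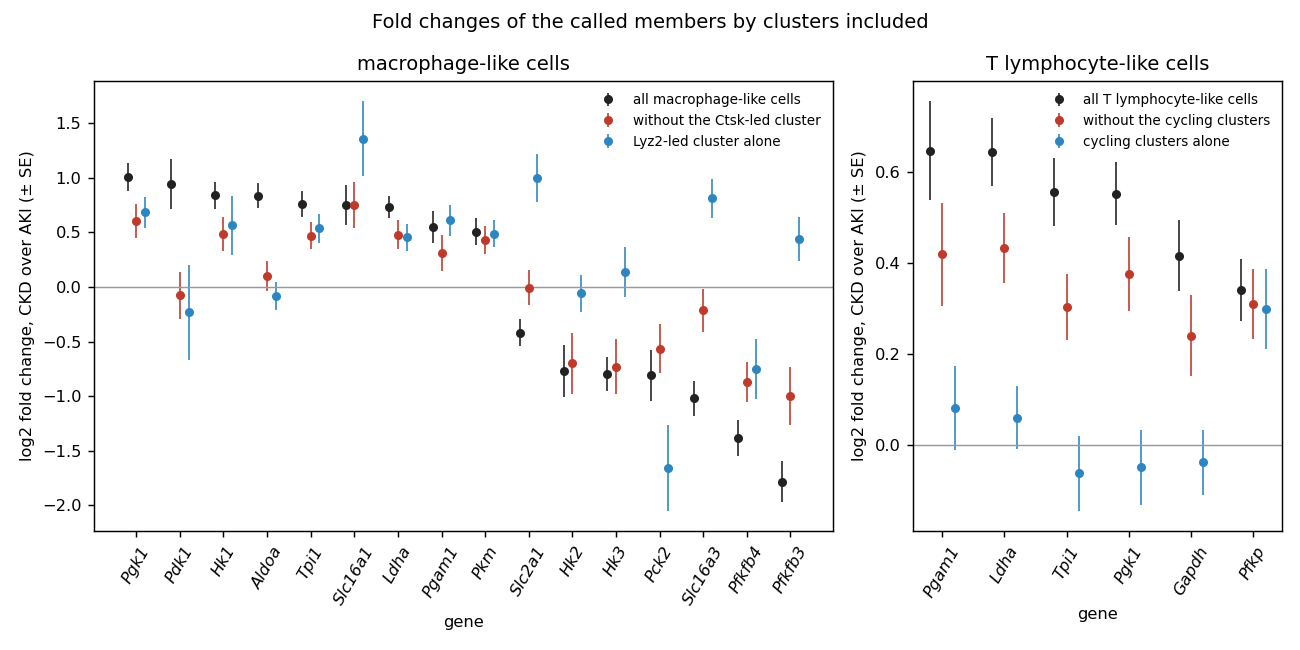
Log2 fold change of CKD over AKI (± SE) of the members called in macrophage-like cells (left) and T lymphocyte-like cells (right), over all cells of the class and over parts of it. Without the Ctsk-led cluster Aldoa and Pdk1 lie near 0, in the Lyz2-led cluster Slc2a1 and Slc16a3 lie above 0, and in the cycling T lymphocyte-like clusters alone all but Pfkp lie near 0.

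The control macrophage-like cells gave a separate set of differences. In AKI 15 of 33 members were past 2-fold of the control (24.6% of all genes), 4 above and 11 below, and in CKD 15 of 33 (34.6%), 9 above and 6 below, with Slc16a1 leaving the CKD count when control cells that shared a barcode with a deeper cell were left out. Gapdh, Pgam1 and Slc16a3 were above the control in both groups. Of the 11 below it in AKI, most were genes with their highest level in tubule classes (Fbp1, G6pc, Ldhb, Pck1, Pcx, Pfkm, Slc2a2, Slc5a1 and Slc5a2). Beside them, TAL markers summed to 13.0 in control macrophage-like cells and 0.366 to 4.14 in the others. Pfkfb4 and Slc2a3, both highest in neutrophil-like cells, were the rest.

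In T lymphocyte-like cells Ldha, Pgam1, Tpi1, Pgk1, Gapdh and Pfkp were higher in CKD than in AKI, while Hk1, Gpi1, Aldoa, Eno1 and Pkm were not called. The edgeR test thus called 6 of 33 members, all higher, against 7.92% of all 13880 genes, and DESeq2 called 8. Hk3 was too low to be tested. Ldha was at 2.72 in the control, 2.79 and 2.85 in AKI and 4.66 and 4.15 in CKD (log2 fold change 0.64 ± 0.07 SE, edgeR adjusted p = 0.0215). Pgam1 was at 0.959, 0.930, 0.912, 1.62 and 1.27 in the same order (0.65 ± 0.11, edgeR adjusted p = 0.0356). In both genes the control lay beside AKI and both CKD libraries were above them. Tpi1 (0.56 ± 0.08), Pgk1 (0.55 ± 0.07) and Gapdh (0.42 ± 0.08) rose as well, Gapdh from 8.32 in the control through 11.7 and 12.2 in AKI to 15.9 and 15.8 in CKD. Pfkp was at 0.645 in the control, 0.796 and 0.805 in AKI and 1.06 and 0.963 in CKD (0.34 ± 0.07, edgeR adjusted p = 0.0479).

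The calls in T lymphocyte-like cells changed when the clusters led by cell cycle genes were left out. The part of cell division in them was not tested. The 3 clusters with at least 2 cell cycle genes among their 10 leading genes held 5.03% of T lymphocyte-like cells in the control, 4.91% and 5.15% in AKI and 25.5% and 16.1% in CKD. In these clusters Ldha stood at 6.39 to 7.66 in every library, against 2.05 to 3.02 in the remaining T lymphocyte-like cells, and Gapdh at 21.6 to 23.0 against 6.60 to 11.6. Without them the edgeR test called 0 of 33 members and 0 of 13600 genes (0%), with 8 members at an unadjusted p under 0.05, and Ldha was at 2.05 and 2.11 in AKI and 3.02 and 2.67 in CKD. Within them alone it called 0 of 31 members and 0.0181% of genes. Without these clusters log2 fold changes were 0.43 ± 0.08 for Ldha, 0.42 ± 0.11 for Pgam1 and 0.38 ± 0.08 for Pgk1. For Pfkp, Tpi1 and Gapdh they were 0.31 ± 0.08, 0.30 ± 0.07 and 0.24 ± 0.09. Of single clusters outside them, Ldha was called in that led by Ccl5, Cd8b1 and Nkg7 (edgeR adjusted p = 0.0351, 1 of 32 members, 4.30% of genes). It was also called in that led by Ikzf2, Areg and Foxp3 (0.0471, 1 of 29, 1.02%), and the rest had no member called. In the whole class the number and direction of the edgeR calls changed with the library left out, and no member stayed called throughout. Each such fit leaves a lone library in a group, and only effect sizes are given here. The median log2 fold change over the members was 0.028 with all libraries, -0.012 without AKI 1 and 0.066 without AKI 2. It was 0.072 without CKD 1 and 0.26 without CKD 2. DESeq2 was not run on these subsets.

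Against the control, 8 of 34 members in AKI (18.7% of all genes) and 7 of 34 in CKD (21.0%) were past 2-fold in T lymphocyte-like cells. Slc16a1 was at 0.115 in the control, 0.250 and 0.268 in AKI and 0.316 and 0.295 in CKD, and Slc16a3 at 0.00855 on 4 UMIs in the control and 0.0384 to 0.0438 in the others. The control was lowest for both lactate carriers. Pdk1 was below the control in both groups, at 0.33 against 0.109 to 0.143.

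Shares of paralog families show which form's transcripts were counted, free of the scale of the library. In PT-like cells Hk2 held 2.60% of hexokinase UMIs in the control (exact 95% binomial interval 0.316% to 9.07%, of 77 UMIs), 43.8% and 41.3% in AKI and 26.6% and 73.8% in CKD. In the Spink1-, Slc4a4- and Gpx3-led cluster alone it held 2.13% in the control, 44.7% and 36.1% in AKI and 17.2% in CKD 1, with 10 hexokinase UMIs in CKD 2, and 83.7% of 43 UMIs in the Gm26917-led cluster of CKD 2. In TAL-like cells it held 0.626% in the control, 19.9% and 23.4% in AKI and 6.77% and 13.8% in CKD. In both segments the control lay below every injured library, and CKD 1 below the other 3. The Ldha share of lactate dehydrogenase UMIs was 20.4% in the control and 29.8% to 34.3% in the injured libraries in PT-like cells, and 5.14% against 10.8% to 15.2% in TAL-like cells. The Pfkm share of phosphofructokinase UMIs was 33.5% in control PT-like cells and 7.55% to 18.7% in the others, and 28.1% in control TAL-like cells and 6.42% to 12.2% in the others.

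In macrophage-like cells the shares of several paralogs lay apart between AKI and CKD, the hexokinase and lactate carrier families by the widest gaps. Hk1 held 26.5% of hexokinase UMIs in the control, 11.4% and 10.9% in AKI and 33.8% and 23.4% in CKD. Slc16a3 held 41.7% of the lactate carriers' UMIs in the control (22.1% to 63.4%, of 24 UMIs), 71.6% and 76.2% in AKI and 43.9% and 47.4% in CKD, Slc16a1 holding the rest. Pfkfb3 held 58.3% and 56.2% of PFKFB UMIs in AKI and 48.8% and 51.7% in CKD, Pfkm 2.08% and 2.76% of phosphofructokinase UMIs in AKI and 4.53% and 3.17% in CKD, and Slc2a3 13.4% and 9.69% of the glucose carriers' UMIs in AKI and 5.48% and 8.82% in CKD. An exact permutation test of 2 against 2 libraries cannot go below p = 0.33 (2-sided), and no p is given for a share. Without the Ctsk-led cluster the difference of CKD minus AKI was 12.2 percentage points for Hk1 in place of 17.4, and -14.5 for Slc16a3 in place of -28.3.

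**Figure D5:**
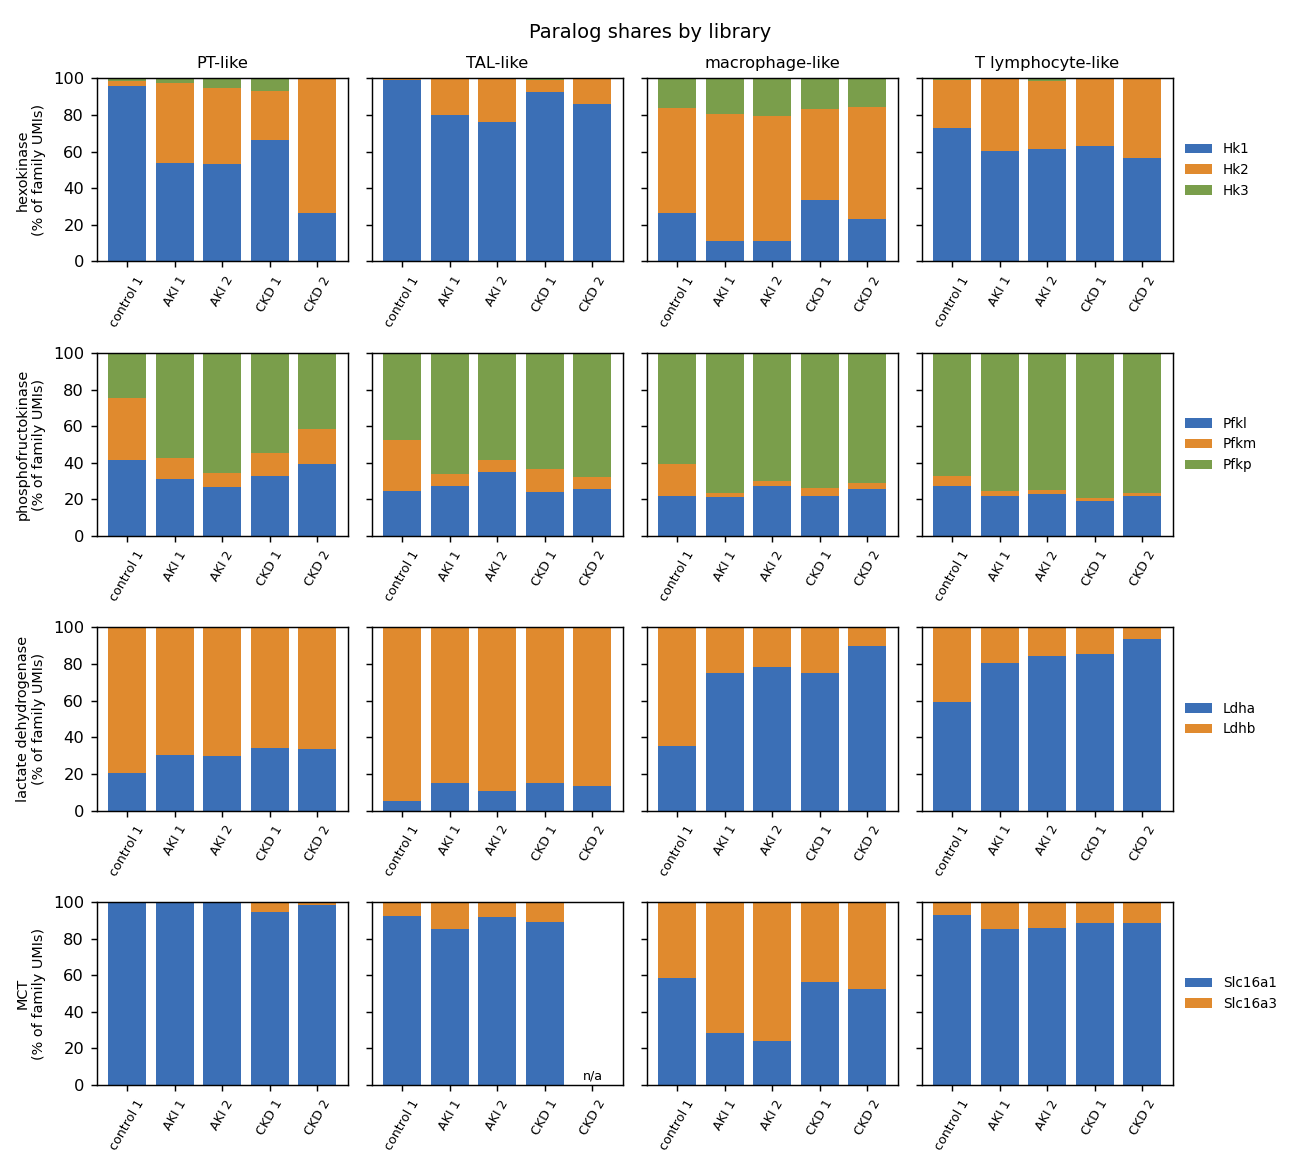
Share of each paralog in the UMIs of its family (percent, stacked to 100) in each library, for 4 families (rows) and 4 cell classes (columns); n/a marks a family with under 20 UMIs. Hk2 holds 2.60% and 0.626% of hexokinase UMIs in control PT-like and TAL-like cells and more in every injured library, and Slc16a3 holds 71.6% and 76.2% of the lactate carriers in AKI macrophage-like cells.

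Other genes of glucose metabolism were counted by list with the same edgeR test. Over the 9 lists, stress genes included, it called 42 of 108 genes in macrophage-like cells (38.9%, against 33.8% of all genes) and 16 of 116 in T lymphocyte-like cells (13.8%, against 7.92%). In macrophage-like cells 6 of 12 genes of pyruvate dehydrogenase and mitochondrial pyruvate entry were higher in CKD and 0 lower, led by Dlat (log2 fold change 1.46 ± 0.15), Pdha1 (1.31 ± 0.12) and Pdhb (1.25 ± 0.13), 3 subunits of the complex that Pdk1 inhibits. Of 11 genes of gluconeogenic precursor supply 4 were higher and 2 lower, with the malate dehydrogenases Mdh2 at 1.95 ± 0.11 and Mdh1 at 1.29 ± 0.10 and glycerol kinase, Gk, at -0.92 ± 0.20. The hypoxia list had 1 of 13 higher and 2 lower, among them Hif1a at -0.78 ± 0.10. Of the other hexose and monocarboxylate transporters 1 of 13 was higher and 2 lower, with Slc2a6 at -1.78 ± 0.15, and of 15 other glycolytic and gluconeogenic enzymes 3 were higher (Aldoc, Eno3 and Pgm2) and 0 lower. The pentose phosphate list of 8 had G6pdx, its first enzyme, at -1.12 ± 0.18 and Pgls, its second, at 0.73 ± 0.12. Of 5 fructose and polyol genes 1 was higher, and of 13 regulators 1, Myc, was higher and 2 lower. The median log2 fold change of these lists ran from -0.06 to 0.57, against 0.01 over all genes. Without the Ctsk-led cluster the edgeR test called 1 gene of precursor supply, 11 of the 18 stress genes and 0 in the other 7 lists, in which 0 to 4 genes each were at an unadjusted p under 0.05 (DESeq2 was not run on it).

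In T lymphocyte-like cells the lists had fewer calls. The pentose phosphate list had 2 of 8 higher, the transketolase gene Tkt at 0.48 ± 0.07 and Prps1 at 0.38 ± 0.07, and precursor supply 3 of 11 higher (Slc25a11, Got2 and Mdh2). Slc16a6 at -0.66 ± 0.07, Irs2 at -0.83 ± 0.12 and Nr3c1 at -0.55 ± 0.07 were lower, and the pyruvate dehydrogenase, hypoxia, fructose and other glycolysis lists had 0 calls in either direction by edgeR, with 2, 4, 1 and 1 genes at an unadjusted p under 0.05 and 1, 2, 1 and 0 called by DESeq2. Without the cycling clusters the edgeR test called 0 genes of any list, with 0 to 13 genes a list at an unadjusted p under 0.05. Of the 18 dissociation and stress genes 8 were lower. In PT-like cells 0 of 113 genes over all 9 lists were called by edgeR, with 17 at an unadjusted p under 0.05, and DESeq2 called 4.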

How the data were processed

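Single-cell UMI counts per gene and barcode were deposited by the authors for 5 kidney libraries. Per the labels' processing notes, Cell Ranger 7.2.0 with STAR aligned reads to GRCm39. The matrix headers of the AKI and CKD libraries name another Cell Ranger version, and the control's gene list is named for mm10, so that the annotation of the counts is uncertain and no coordinates were taken from the counts. The study's methods name a correction for free RNA, whether the deposited counts carry it is not given in the sources used here, and none was applied to them here. No deposited cell annotation was used here.

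Barcodes with over 30% mitochondrial UMIs or under 200 genes were removed, as were likely doublets, found by scoring cells against simulated doublets at 0.8% per 1000 cells (652 to 2981 per library). The smallest deposited barcode held 1229 UMIs in CKD 1 and 500 to 599 in the other libraries. Cells were clustered on 3000 variable genes, without members and listed pathway genes, using 40 components corrected between libraries with the Harmony algorithm, 15 neighbours and Leiden resolution 1.5 (leidenalg 0.10.2). Clusters were named from marker lists, by a rule settled after the clusters were seen. Cells are not replicates, so UMIs were summed per library and class, and 2 CKD were compared with 2 AKI libraries in edgeR 4.0.16 (R 4.3.3; quasi-likelihood test, TMM, filterByExpr, Benjamini-Hochberg adjustment over all genes of the class, threshold 0.05). DESeq2 1.42.0 was an alternative. The single control entered no test: a gene was counted against it at 2-fold in both libraries of a group, over genes with at least 20 UMIs in all and 3 in the control or in both libraries of the group. Intervals are exact Poisson or binomial at 95% and cover counting error only. Class totals behind the levels ran from 51602 UMIs (neutrophil-like, control) to 44778738 (T lymphocyte-like, CKD 2).

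On simulated counts with 200 changed genes the test recovered 128 in PT-like (12109 genes, 3 false calls), 133 in macrophage-like (12520 genes, 7 false calls) and 144 in T lymphocyte-like data (13660 genes, 7 false calls). Values are given in every library for members called in a class, highest in a class or in a family whose share is described, and for at most 3 called genes of each other list. The rule for the members uses no measured value, but members and lists were chosen with earlier results of these data known, and the parts of classes were chosen after seeing the data. UMIs from near-identical copies may be split: Eno1b held 2021 UMIs beside 57254 of Eno1, and a second Aldoa identifier 5 beside 171533. No label ties same-numbered AKI and CKD libraries to each other. Promoter sequences are RefSeq, GRCm38.p6.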

Additional observations from a re-analysis of the deposited data

Results flagged for a closer look

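The log2 fold changes of Pfkp had opposite signs in 2 classes. In macrophage-like cells that of CKD over AKI was -0.22 ± 0.11 SE, with both CKD libraries below both AKI libraries but by little on the scale of levels (0.564 and 0.532 in AKI, 0.532 and 0.519 in CKD, in UMIs per 10000), and in T lymphocyte-like cells it was 0.34 ± 0.07, with both CKD libraries above both. Only the latter passed the edgeR quasi-likelihood test (adjusted p = 0.0479 against 0.168), and the difference between the classes was not tested. In the Lyz2-led macrophage-like cluster alone it was 1.21 ± 0.15.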

How the results depend on the processing

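Members called between AKI and CKD by edgeR numbered 16 in macrophage-like, 6 in T lymphocyte-like, 0 in PT-like and 0 in the other 11 classes, and genes called 4314, 1099, 23 and 181. Leaving out 1 library at a time gave 8 to 26, 0 to 20, 0 to 4 and 0 to 73 members, and 2088 to 6163, 0 to 4475, 2 to 821 and 59 to 10466 genes, the lone library being assumed to vary like the other group. Without Harmony correction there were 10 members in macrophage-like and 3 in T lymphocyte-like cells, and 469 genes in T lymphocyte-like, 242 in PT-like and 88 in other classes. With no filter on low counts there were 3 members in PT-like and 30 in other classes, and 1958, 970 and 3547 genes in T lymphocyte-like, PT-like and other classes. DESeq2 called 1722, 220 and 298 genes there. With at most 15% mitochondrial UMIs 1 member in other classes and 75 genes in PT-like cells were called, and with doublets kept 1 member and 283 genes in other classes and 1 gene in PT-like cells. Chosen after seeing the data, leaving out the Ctsk-led cluster gave 0 members and 806 genes and turned the log2 fold change of Pdk1 to -0.078, leaving out the cycling clusters 0 members and 0 genes, and leaving out the cluster mostly from CKD 1 339 genes in PT-like cells. The cause was not tested in any of these.

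The Hk1 share difference in macrophage-like cells went from 17.4 to 12.2 percentage points without the Ctsk-led cluster. That of Slc16a3, -28.3, was -25.3 with doublets kept, -32.0 without Harmony and -14.5 without that cluster. That of Ldhb in PT-like cells, -3.81, was -7.34 at 15% mitochondrial UMIs, -4.71 with doublets, -3.10 without Harmony and -2.79 at Leiden resolution 1.0. At 3-fold of the control in place of 2-fold, AKI and CKD members numbered 4 and 0 in EC-like, 5 and 2 in PT-like, 3 and 1 in T lymphocyte-like and 9 and 6 in macrophage-like cells, and 2 in CKD TAL-like cells. At 15% mitochondrial UMIs AKI TAL-like members numbered 8. No share of all genes is set beside these counts.

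Same-numbered AKI and CKD libraries deviated together (r = 0.234 over genes in macrophage-like, 0.278 in T lymphocyte-like and 0.189 in PT-like cells), but there were only 2 pairs and no label ties them, so that the numbers were not taken as a pairing. With the replicate number as a block edgeR called 2042 genes in T lymphocyte-like cells, 326 in PT-like cells, and 895 genes and 2 members in other classes.

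With 2 libraries a group and 1 control, small differences cannot be resolved, and rare classes and low genes rest on few UMIs.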
